A study of Drosophila melanogaster with 18 samples.

Results

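Cytochrome P450 genes were followed through wing imaginal discs with clones of wts149, an allele of the Hippo pathway kinase gene warts. The members were taken by name. Every symbol in the count table that began with Cyp, a family number, a subfamily letter and a gene number was taken, except Cyp18a1, and 84 symbols remained. Of these, 66 reached 10 counts summed over all 18 libraries and formed the set, out of 17373 genes in the table. The 4 members nearest above that limit were Cyp313a4 with 14 counts, Cyp4p3 with 14, Cyp12c1 with 13 and Cyp4e3 with 11. The nearest symbols below it were Cyp6w1 with 9 counts, Cyp4s3 with 7, and Cyp4aa1 and Cyp4d21 with 5 each. Of the 18 symbols left out, 9 had no count in any library, and a count of 0 allows up to 3 counts, by counting error only.

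Cytochromes P450 are haem enzymes that insert 1 atom of oxygen from molecular oxygen into a substrate. Those of the endoplasmic reticulum receive electrons from the reductase Cpr, and those of mitochondria from ferredoxin. In insects they fall into 4 clans (CYP2, CYP3, CYP4 and mitochondrial). Their known tasks include the synthesis and breakdown of the steroid hormone ecdysone, the metabolism of fatty acids and cuticle lipids, and the clearance of plant toxins and insecticides. Several fly P450s that make ecdysone are listed under other names (phantom, disembodied, shadow and shade), so the naming rule did not take them, and they are described with the hormone genes.

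Whole discs were dissected from wandering larvae of the third instar raised at 25 °C, and total RNA was sequenced. The groups were discs with wts149 clones on day 9, discs with wts149 clones on day 5 and discs with control clones on day 5. All 3 groups carried ubxflp, which drives FLP recombinase from Ubx sequences, and a chromosome with FRT82B, the recombination site on arm 3R. The background was Minute, a condition that slows the growth of cells outside the clones. The control chromosome carried no wts allele in the labels, and the sources used here do not give the share of mutant cells in a disc. Each group had 3 numbered replicates, each with an a and a b library, which were summed (n = 3). No control of day 9 was among the samples analysed here, so wts day 9 and control differ in age as well as in genotype, and a description field of the controls reads d5.d6. In whole discs, fewer cells of a type and less RNA per cell cannot be told apart.

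Depth was 5611674 to 11193858 counts for a library and 14201662 to 22263073 for a replicate. The transcript of wts itself stood at 274, 256 and 277 CPM (counts scaled for library size, with TMM) in wts day 9 discs, 213, 208 and 185 in wts day 5 discs and 99.8, 106 and 95.6 in control discs. It was higher in the wts discs and does not check the genotype, since the sources used here do not give the lesion of wts149. The 11 wing disc epithelium markers summed to 1509 to 1601 CPM in wts day 9 discs, 1391 to 1484 in wts day 5 discs and 1597 to 1678 in control discs, with none at 0. Other tissues differed between groups or replicates. The 9 larval muscle markers summed to 32.7 to 52.3, 93.1 to 173 and 211 to 999 CPM in wts day 9, wts day 5 and control discs, and all 9 fell on day 9. The 8 fat body markers reached 356 CPM in wts day 9 replicate 2, against 70.1 to 249 in the other 8 replicates. The 6 salivary gland markers reached 245 and 5285 CPM in control replicates 2 and 3, against 0.192 to 3.19 in the others, and the 8 midgut markers 36.5 CPM in control replicate 3, against 0.0533 to 1.51. Disc myoblast markers (8) summed to 423 to 476, 315.9 to 351 and 472 to 486 CPM in wts day 9, wts day 5 and control discs, and tracheal markers (7) to 2851 to 3266, 2365 to 2547 and 1656 to 2188. Haemocyte markers (9) summed to 120 to 210 CPM in wts day 9 discs, 71.3 to 90.1 in wts day 5 discs and 67.3 to 206 in control discs. Malpighian tubule markers (5) stayed at 1.16 CPM or less throughout. What part these tissues had in the P450 values was not tested, and marker sums given beside a gene are a description.

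Most P450 genes were barely read in the disc. Averaged over the 3 group means, 6 members stood at 10 CPM or more, 14 at 1 to 10 and 46 below 1. The 36 members that failed the filter on low counts had 0.0577 to 1.39 CPM, with a median of 0.168. The other 30 were tested and had 0.270 to 68.3 CPM. A member could pass this filter through 1 group alone, so counts over the 30 are given as a description. Per kilobase of exon, Cyp310a1 was the highest member at 32.4 CPM per kb, followed by Cyp6v1 at 22.6, Cyp6a17 at 19.8, Cyp4e2 at 15.3, Cyp6u1 at 12.7 and Cyp6d4 at 6.27. Cyp301a1 came next at 3.42 CPM per kb. Cyp6v1, Cyp310a1, Cyp6a17, Cyp4e2 and Cyp6u1 held 75.1% of all P450 reads, as CPM averaged over the 3 groups.

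The members' summed level was 309.1, 322.6 and 278.2 CPM in wts day 9 discs and 283.02, 313.5 and 280.4 in wts day 5 discs, against 229.1, 268.4 and 244.2 in control discs. Both wts groups lay above all 3 controls. Without Cyp6a17 the sum was 254 ± 19.1 CPM in wts day 9 discs, 253 ± 22.2 in wts day 5 discs and 233 ± 18.3 in control discs (SD, n = 3 each), and the groups overlapped. Clan and family sums are given as a description, with no test. The CYP3 clan, with 31 members, summed to 255 ± 20.1, 242 ± 3.03 and 187 ± 17.6 CPM in wts day 9, wts day 5 and control discs. The 25 members of the CYP4 clan summed to 37.7 ± 5.83 CPM in wts day 9 discs, 35.4 ± 17.6 in wts day 5 discs and 40.8 ± 8.24 in control discs. The 7 mitochondrial members summed to 9.24 ± 1.75 CPM in wts day 9 discs, 13.3 ± 3.08 in wts day 5 discs and 14.6 ± 2.36 in control discs. The 3 members of the CYP2 clan, Cyp303a1, Cyp304a1 and Cyp305a1, summed to 1.32 ± 0.324 CPM in wts day 9 discs and 1.40 ± 0.151 in wts day 5 discs, against 5.11 ± 0.686 in control discs. By family, Cyp6 held 193 ± 8.57, 164 ± 10.3 and 121 ± 10.2 CPM in wts day 9, wts day 5 and control discs.

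**Figure D1:**
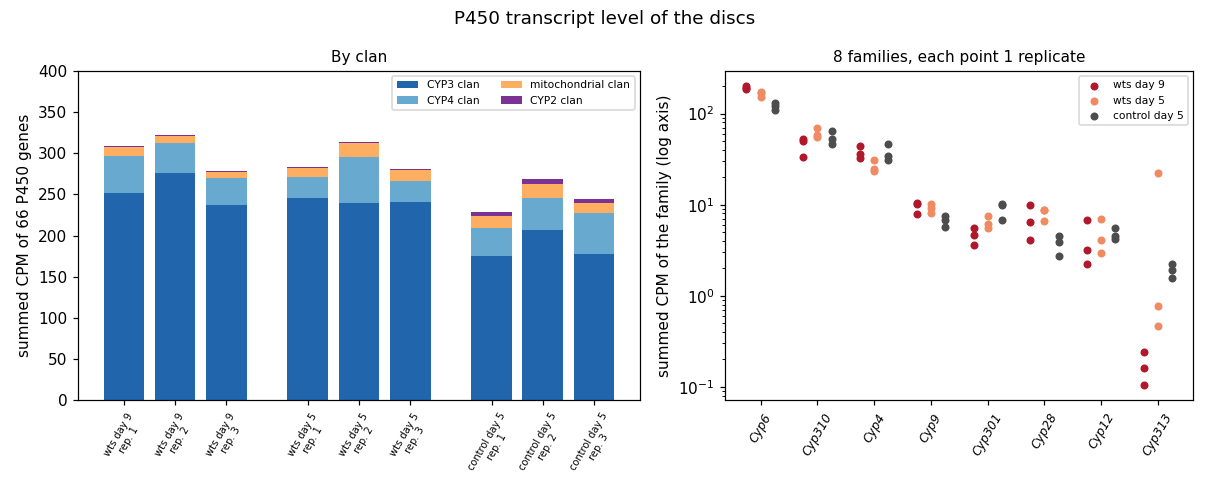
Left, summed CPM of the 66 P450 genes in each replicate, stacked by clan, with wts day 9, wts day 5 and control day 5 from left to right. Right, summed CPM of 8 families on a log axis, each point 1 replicate; Cyp6 is higher in all wts replicates than in the controls, and Cyp313 reaches 22.4 CPM in wts day 5 replicate 2 alone.

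Between wts day 5 and control discs, 5 tested members rose and 2 fell by edgeR's quasi-likelihood test, at an adjusted p (Benjamini-Hochberg over 8585 genes) under 0.05. The background of called genes was 9.64% higher and 8.88% lower, and 5 and 2 of 30 members are 16.7% and 6.67%. Between wts day 9 and control discs, 5 rose and 4 fell (16.7% and 13.3%), beside 15.3% and 14.3% of all tested genes. Between wts day 9 and wts day 5 discs (the wts ages), 2 rose and 1 fell (6.67% and 3.33%), beside 5.44% and 2.9%. The first 2 comparisons share the control discs, so their calls are not independent of each other. The groups did not overlap, higher or lower, for 7 and 5 members on day 5, beside 19.3% and 17.8% of all genes. The numbers were 5 and 8 on day 9, beside 22.1% and 22.4%, and 4 and 5 between the wts ages, beside 18.2% and 17.3%. The median log2 fold change of the tested members was 0.20 on day 5 and 0.26 on day 9, with all tested genes at -0.0018 and -0.014. Most of these shares lie near those of all genes, so what follows describes single genes and not a change of the family.

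**Figure D2:**
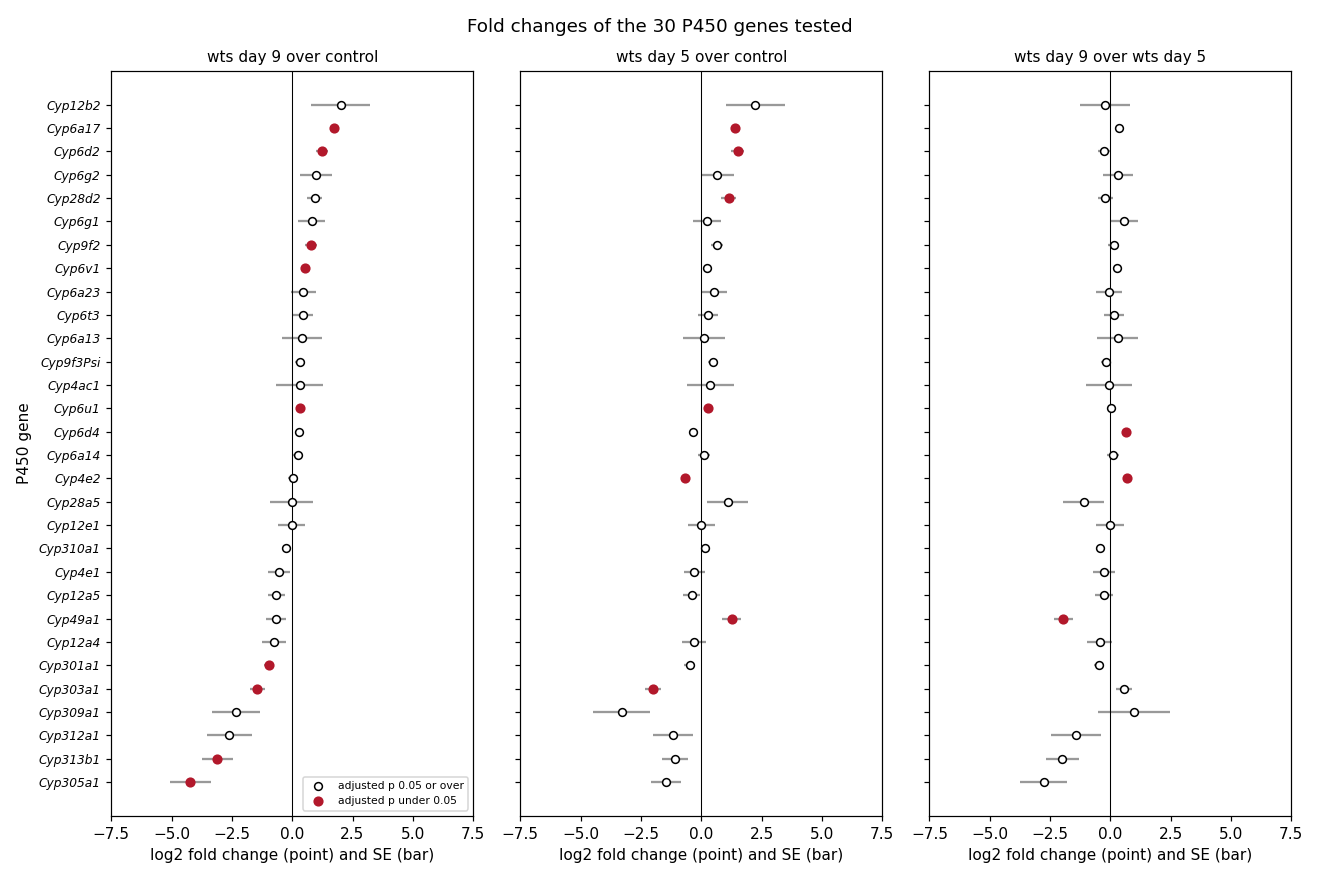
Log2 fold change (point) and SE (bar) of the 30 tested members, for wts day 9 over control, wts day 5 over control and wts day 9 over wts day 5 from left to right, filled where the edgeR adjusted p is under 0.05. Cyp6a17 and Cyp6d2 are filled and above 0 in both comparisons with the controls, and Cyp303a1 is filled and below 0 in both.

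Cyp6a17, a CYP3 clan gene on arm 2R known for its part in the temperature preference of adult flies, had the smallest adjusted p of the members in both comparisons with the controls. It stood at 41.8, 59.7 and 46.0 CPM in wts day 9 discs and 43.5, 34.5 and 38.8 in wts day 5 discs, against 14.5, 17.2 and 12.4 in control discs. All 6 wts values lay above all 3 controls, while the wts ages overlapped. The rise was 3.34-fold on day 9 (log2 1.74 ± 0.16 SE, edgeR adjusted p = 9.6e-05) and 2.64-fold on day 5 (1.40 ± 0.16, adjusted p = 0.000673). It passed under every alternative run. wts day 9 replicate 2, the replicate high in fat body markers, was also the highest in Cyp6a17. Without it the day 9 change was 1.60 on the log2 scale (adjusted p = 0.000356). Control replicates 2 and 3, next in fat body markers at 197 and 249 CPM, had 17.2 and 12.4 CPM of Cyp6a17.

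Cyp6a17 lies in a run of 9 adjacent P450 genes on 2R, in the order Cyp6a22, Cyp6a17, Cyp6a23, Cyp6a19, Cyp6a9, Cyp6a20, Cyp6a21, Cyp6a8 and Cyp317a1. Of these, 7 are members, and besides Cyp6a17 only Cyp6a23 passed the filter. Cyp6a23 had 3.25, 6.0 and 4.31 CPM in wts day 9 discs and 4.56, 3.93 and 5.51 in wts day 5 discs, against 2.76, 6.13 and 0.853 in control discs. The groups overlapped, and neither change with the controls passed (adjusted p = 0.536 on day 9 and 0.526 on day 5). Cyp6a23 is a close paralog of Cyp6a17, so reads could be split between them in a way the counting does not show. Of the neighbours outside the filter, Cyp6a22 had 12, 24 and 8 counts in all of wts day 9, wts day 5 and control discs, and Cyp6a9 had 7, 48 and 25. Cyp6a9 overlaps its neighbour Cyp6a19 on the opposite strand, and the sources used here do not give the use of strand in counting.

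Cyp6d2, also on 2R, was lower in level but rose in both comparisons. Its values were 4.96, 4.14 and 5.75 CPM in wts day 9 discs and 5.28, 5.41 and 7.22 in wts day 5 discs, against 1.55, 2.84 and 1.92 in control discs. Every wts replicate lay above every control. The rise was 2.35-fold on day 9 (log2 1.23 ± 0.26, adjusted p = 0.00727) and 2.83-fold on day 5 (1.5 ± 0.27, adjusted p = 0.00484, edgeR). In the a libraries alone the day 9 call was lost (adjusted p = 0.0540). Cyp6d2 overlaps nsr on the opposite strand, and nsr, which was not tested, had 0.336 to 0.533 CPM on day 9 and 0.468 to 0.632 on day 5, against 0.0937 to 0.178 in control discs. Reads of the pair cannot be told apart without strand. nsr was counted below Cyp6d2 and was itself higher in the wts discs, and its part in the Cyp6d2 values was not tested.

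Cyp6v1, on the X chromosome, was the member with the most reads and rose on day 9. It stood at 82.8, 77.8 and 82.3 CPM in wts day 9 discs, 71.5, 60.6 and 69.5 in wts day 5 discs and 50.8, 57.0 and 62.3 in control discs. The day 9 values lay above all others, and the wts day 5 and control values overlapped. The day 9 rise against control was 1.43-fold (log2 0.51 ± 0.09, edgeR adjusted p = 0.00257) and passed under every alternative run. The day 5 difference was 0.25 ± 0.09 (adjusted p = 0.0788), and that between the wts ages 0.27 ± 0.09 (adjusted p = 0.0863).

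Cyp6u1, on 2R, rose by a small amount at both ages. It had 28.4, 28.3 and 26.3 CPM in wts day 9 discs and 28.1, 25.7 and 27.4 in wts day 5 discs, against 21.4, 23.6 and 22.3 in control discs. The control values lay together below all wts values. The rise was 1.23-fold on day 9 (log2 0.30 ± 0.08, adjusted p = 0.0168) and 1.21-fold on day 5 (0.27 ± 0.08, adjusted p = 0.0383, edgeR). Leaving out control replicate 1, or using the a libraries alone, lost the day 9 call (adjusted p = 0.0551 and 0.112). The day 5 call was lost on leaving out replicate 1 or 3 of either day 5 group (adjusted p 0.0705 to 0.101). It was also lost in 5 of 11 other alternatives, at an adjusted p of up to 0.127. These were library size alone, no filter, the replicate block, the a libraries alone and the 2 groups alone. Cyp6u1 shares exon sequence on its own strand with CG30157, which did not pass (adjusted p = 0.18 on day 9 and 0.771 on day 5).

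Cyp28d2 on 2L and Cyp9f2 on 3R rose in 1 comparison each, by calls that were lost when some single replicates were left out. Cyp28d2 had 3.41, 7.76 and 5.56 CPM in wts day 9 discs and 6.06, 6.18 and 7.17 in wts day 5 discs, against 3.98, 2.67 and 2.13 in control discs. The wts day 5 values lay above all controls, and wts day 9 overlapped them. The day 5 rise was 2.21-fold (log2 1.14 ± 0.32, edgeR adjusted p = 0.0342) and the day 9 difference 0.93 ± 0.32 (adjusted p = 0.0509). With 1 replicate left out, the day 5 call was lost in 6 of 9 fits (wts day 9 replicate 3, any wts day 5 replicate, control replicate 2 or 3; adjusted p 0.0563 to 0.113). Its neighbour Cyp28d1, outside the filter, had 0.0533, 1.24 and 0.767 CPM in wts day 9 discs, 0.363, 0.211 and 0.364 in wts day 5 discs and 0.0937, 0.178 and 0.427 in control discs. Both genes were highest in wts day 9 replicate 2, which had 356 CPM of fat body markers. Without it the day 9 difference of Cyp28d2 was 0.64 (edgeR adjusted p = 0.192). Control replicates 2 and 3 were next in these markers, at 197 and 249 CPM. Cyp28d2 was lowest there, at 2.67 and 2.13 CPM, and Cyp28d1 stood at 0.178 and 0.427. The part of fat body in these values was not tested.

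Cyp9f2 stood at 4.05, 5.07 and 4.94 CPM in wts day 9 discs, 3.21, 4.78 and 4.88 in wts day 5 discs and 2.62, 3.42 and 2.19 in control discs. On day 9 the groups did not overlap, and the rise was 1.70-fold (log2 0.77 ± 0.25, edgeR adjusted p = 0.0404). With 1 replicate left out, it was lost in 6 of 9 fits (replicate 2 or 3 of either wts group, control replicate 1 or 3; adjusted p 0.0511 to 0.120). On day 5 the difference was 0.64 ± 0.25 (adjusted p = 0.0990). The symbol Cyp9f3Psi, which the Ensembl annotation lists as the protein-coding gene Cyp9f3, had 3.41, 4.45 and 4.94 CPM in wts day 9 discs, 4.92, 4.07 and 5.35 in wts day 5 discs and 3.42, 3.82 and 3.04 in control discs. It did not pass on day 9 or day 5 (adjusted p = 0.283 and 0.136).

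**Figure D3:**
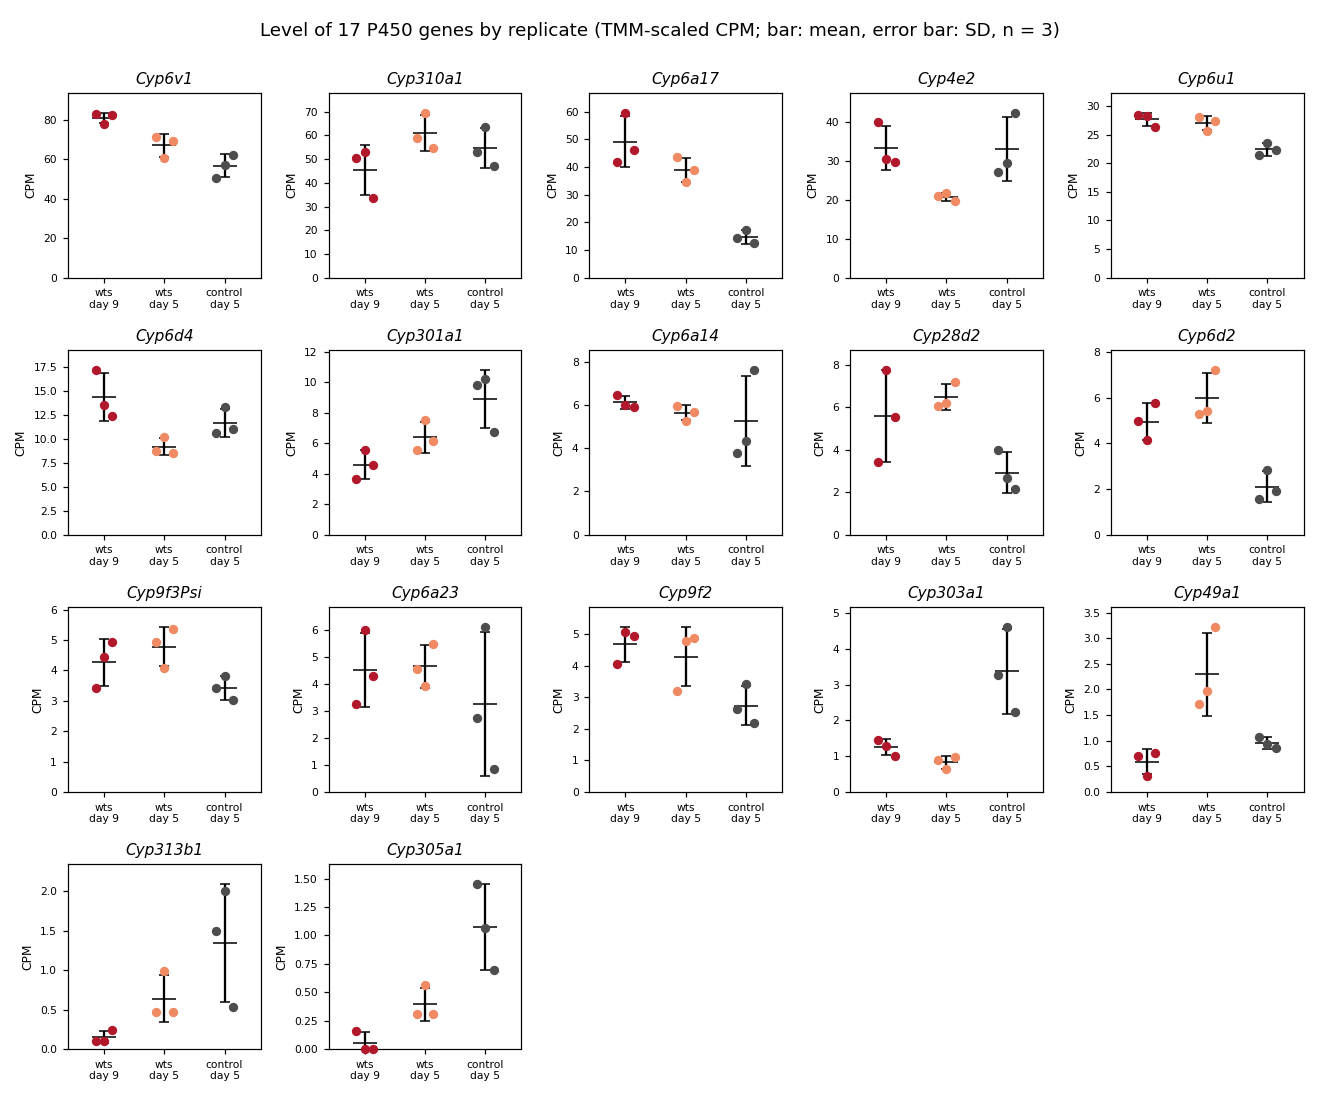
CPM of the 17 named members in each replicate (points), with the group mean ± SD (n = 3), wts day 9, wts day 5 and control day 5 from left to right. The panels have separate axes, which start at 0. Cyp6a17 stands at 34.5 to 59.7 CPM in the wts discs, above all 3 controls, and Cyp303a1 at 0.632 to 1.44 CPM, below all 3 controls.

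Cyp303a1, a CYP2 clan gene on 2L that flies need for the external sensory bristles, fell at both ages. It had 1.44, 1.29 and 1.01 CPM in wts day 9 discs and 0.881, 0.632 and 0.987 in wts day 5 discs, against 3.28, 4.62 and 2.24 in control discs, from 73, 45 and 216 counts in the 3 groups. All 6 wts values lay below all 3 controls. The fold was 0.37 on day 9 (log2 -1.44 ± 0.33, edgeR adjusted p = 0.00993) and 0.25 on day 5 (-2.0 ± 0.34, adjusted p = 0.00417). The day 5 call passed under every alternative run, and leaving out wts day 9 replicate 3 lost the day 9 call (adjusted p = 0.0521). Cyp303a1 overlaps heix, which is on the opposite strand and did not pass (edgeR adjusted p = 0.946 on day 9 and 0.446 on day 5). heix was counted far above Cyp303a1, at 46.8 to 51.3, 43.1 to 47.5 and 42.7 to 56.4 CPM in wts day 9, wts day 5 and control discs. Reads of this pair cannot be told apart without strand, and the part of heix in the Cyp303a1 values was not tested.

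The other CYP2 clan members were lower in reads. Cyp305a1, on 3L, had 0.160, 0 and 0 CPM in wts day 9 discs and 0.311, 0.562 and 0.312 in wts day 5 discs, against 1.45, 1.07 and 0.693 in control discs. The 3 groups did not overlap. On day 9 it had 3 counts against 68 in control discs, a level 21.3-fold lower (95% counting interval 7.0 to 106). It may have passed the filter through the control discs alone, so the edgeR call (adjusted p = 0.00477) is given as a description. It was not tested under the stricter filter or in the a or b libraries alone. The day 5 difference was -1.46 ± 0.64 (adjusted p = 0.134). Cyp304a1, outside the filter, was at 1.60 CPM in control replicate 3 and at 0.351 CPM or less in the other 8 replicates.

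Cyp301a1, a mitochondrial clan gene on 2R with a known part in forming adult cuticle, fell on day 9. It stood at 3.63, 5.54 and 4.6 CPM in wts day 9 discs, 5.54, 7.51 and 6.13 in wts day 5 discs and 9.84, 10.2 and 6.72 in control discs. The wts day 9 values lay below all controls, and wts day 5 overlapped them. The fold on day 9 was 0.52 (log2 -0.96 ± 0.22, edgeR adjusted p = 0.0106), and the call passed under every alternative run. The day 5 difference was -0.48 ± 0.22 (adjusted p = 0.151). Ak6, which overlaps it on the opposite strand, had 17.1, 16.6 and 19.0 CPM in wts day 9 discs and 20.4, 22.8 and 25.4 in wts day 5 discs. In control discs Ak6 had 20.8, 20.5 and 20.5 CPM. It lay below all controls on day 9 without passing (edgeR adjusted p = 0.102), and it fell between the wts ages (adjusted p = 0.0419). Reads of Cyp301a1 and Ak6 cannot be told apart without strand, and the part of Ak6 in the Cyp301a1 values was not tested.

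Cyp49a1, another mitochondrial clan gene on 2R, was highest in wts day 5 discs. It had 0.693, 0.311 and 0.767 CPM in wts day 9 discs, 1.71, 1.97 and 3.22 in wts day 5 discs and 1.08, 0.933 and 0.853 in control discs. No 2 groups overlapped. It fell between the wts ages (log2 -1.95 ± 0.40, fold 0.26, edgeR adjusted p = 0.0204) and rose in wts day 5 against control discs (1.26 ± 0.39, 2.40-fold, adjusted p = 0.0474), while wts day 9 against control did not pass (-0.69 ± 0.41, adjusted p = 0.231). With 1 replicate left out, the rise on day 5 was lost in 8 of 9 fits and kept only without wts day 9 replicate 2 (adjusted p 0.0570 to 0.192 in those 8). The fall between the wts ages was lost without replicate 2 or 3 of either wts group (adjusted p 0.0577 to 0.0943). The other 5 mitochondrial members are of family Cyp12, which includes Cyp12a4, known for resistance to the insecticide lufenuron. None of the 4 that were tested passed in any of the 3 comparisons by edgeR, DESeq2 or limma-voom, and none had an unadjusted p under 0.05.

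Cyp4e2, on 2R, held most of the reads of the CYP4 clan, whose members in mammals hydroxylate fatty acids. It stood at 40.0, 30.4 and 29.7 CPM in wts day 9 discs, 20.9, 21.8 and 19.7 in wts day 5 discs and 27.3, 29.5 and 42.4 in control discs. The wts day 5 values lay below both other groups, which overlapped each other. It fell in wts day 5 against control discs (fold 0.63, log2 -0.66 ± 0.17, edgeR adjusted p = 0.0272) and rose in wts day 9 against wts day 5 discs (1.60-fold, 0.68 ± 0.17, adjusted p = 0.0410). wts day 9 against control was 0.01 ± 0.17 (adjusted p = 0.961). The first call was lost whichever wts day 5 replicate was left out (adjusted p 0.0532 to 0.107), and the second whichever replicate of either wts group was left out (0.0747 to 0.137). Its neighbour Cyp4e1 had 61, 69 and 99 counts in wts day 9, wts day 5 and control discs and did not pass.

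Cyp6d4, a CYP3 clan gene on 3R, had the same order of groups. It had 17.2, 13.5 and 12.4 CPM in wts day 9 discs, 8.76, 10.2 and 8.57 in wts day 5 discs and 10.6, 13.3 and 11.1 in control discs. The wts day 5 values were the lowest, and wts day 9 overlapped control. It rose between the wts ages (1.57-fold, log2 0.65 ± 0.15, edgeR adjusted p = 0.0313), a call that was lost whichever wts replicate was left out (adjusted p 0.0558 to 0.117). Against control the differences were 0.30 ± 0.15 on day 9 and -0.35 ± 0.15 on day 5 (adjusted p = 0.161 and 0.136).

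Cyp313b1, a CYP4 clan gene on 3R, fell on day 9. It had 0.107, 0.104 and 0.240 CPM in wts day 9 discs, 0.466, 0.983 and 0.468 in wts day 5 discs and 1.5, 2.0 and 0.533 in control discs. The day 9 values lay below all others. It had 9 counts on day 9 against 87 in control discs, a level 9.10-fold lower (95% counting interval 4.58 to 20.6). It may have passed the filter through the control discs alone, so the edgeR call (adjusted p = 0.00563) is given as a description. It was not tested under the stricter filter or in the a libraries alone. The differences of wts day 5 from control and between the wts ages did not pass (adjusted p = 0.177 and 0.0896).

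Cyp310a1, a CYP3 clan gene on 2L, was the highest member per kilobase. It stood at 50.3, 52.9 and 33.4 CPM in wts day 9 discs, 58.7, 69.7 and 54.9 in wts day 5 discs and 53.1, 63.8 and 46.9 in control discs. Both wts groups overlapped the controls, and neither difference passed (log2 -0.26 ± 0.18 on day 9 and 0.16 ± 0.18 on day 5, edgeR adjusted p = 0.285 and 0.550). The wts ages did not overlap and differed by -0.42 ± 0.18 on the log2 scale (adjusted p = 0.157). Cyp6a14, with 6.45, 6.0 and 5.90 CPM in wts day 9 discs, 5.96, 5.27 and 5.66 in wts day 5 discs and 3.79, 4.35 and 7.62 in control discs, did not pass in any comparison with the controls (adjusted p = 0.522 and 0.794).

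3 further members, Cyp6g1, Cyp6t3 and Cyp4g1, were chosen for description after their values were seen. Cyp6g1, known for resistance to DDT, had 0.640, 2.59 and 1.01 CPM in wts day 9 discs, 0.933, 1.33 and 0.623 in wts day 5 discs and 0.984, 0.977 and 0.427 in control discs. Cyp6g1 lies in a run with Cyp6g2 and then Cyp6t3, and it overlaps Cyp6g2 on the opposite strand. Cyp6t3, which is needed for ecdysone synthesis in the prothoracic gland, overlaps CG8858 on the opposite strand. Cyp6t3 had 0.747, 1.29 and 0.767 CPM in wts day 9 discs, 0.777, 1.05 and 0.727 in wts day 5 discs and 0.890, 0.800 and 0.373 in control discs. In Cyp6g1 and Cyp6t3 the groups overlapped and no comparison with the controls passed. Cyp4g1, which makes cuticular hydrocarbons in oenocytes, was outside the filter with 6, 6 and 27 counts in wts day 9, wts day 5 and control discs.

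A set of neighbouring Cyp313 genes was read almost only in 1 replicate, and these were also chosen after their values were seen. Cyp313a3 had 167 counts (11.7 CPM) in wts day 5 replicate 2 and 14 counts in the other 8 replicates together. Its neighbours on 3R behaved alike, Cyp313a5 with 70 counts there and 10 elsewhere and Cyp313a2 with 63 there and 6 elsewhere. Both libraries of the replicate held them, with 55 and 112 counts of Cyp313a3, 34 and 36 of Cyp313a5 and 24 and 39 of Cyp313a2. Cyp4c3, elsewhere on 3R, had 56 counts there and 23 elsewhere. These 4 were among 25 genes with at least 10 counts in that replicate and 5 times its next highest replicate, a list led by CG4757, Ance-3, CG1124, AttC and CG6012. The family Cyp313 summed to 22.4 CPM there, against 0.466 and 0.779 in the other wts day 5 replicates. In that replicate the fat body, haemocyte, midgut and Malpighian tubule marker lists summed to 70.1, 90.1, 0.702 and 0.562 CPM, each within or below the range of the other 8 replicates. The larval muscle markers summed to 173 CPM there, against 104 and 93.1 in the other wts day 5 replicates. They summed to 32.7 to 52.3 CPM in wts day 9 discs and 211 to 999 in control discs, where Cyp313a3 had 0, 0 and 0.746 CPM. The part of muscle in these values was not tested. Cyp6a19 had 31 counts in control replicate 2 and 6 in the others, and 42 genes stood out in that replicate in the same way.

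**Figure D4:**
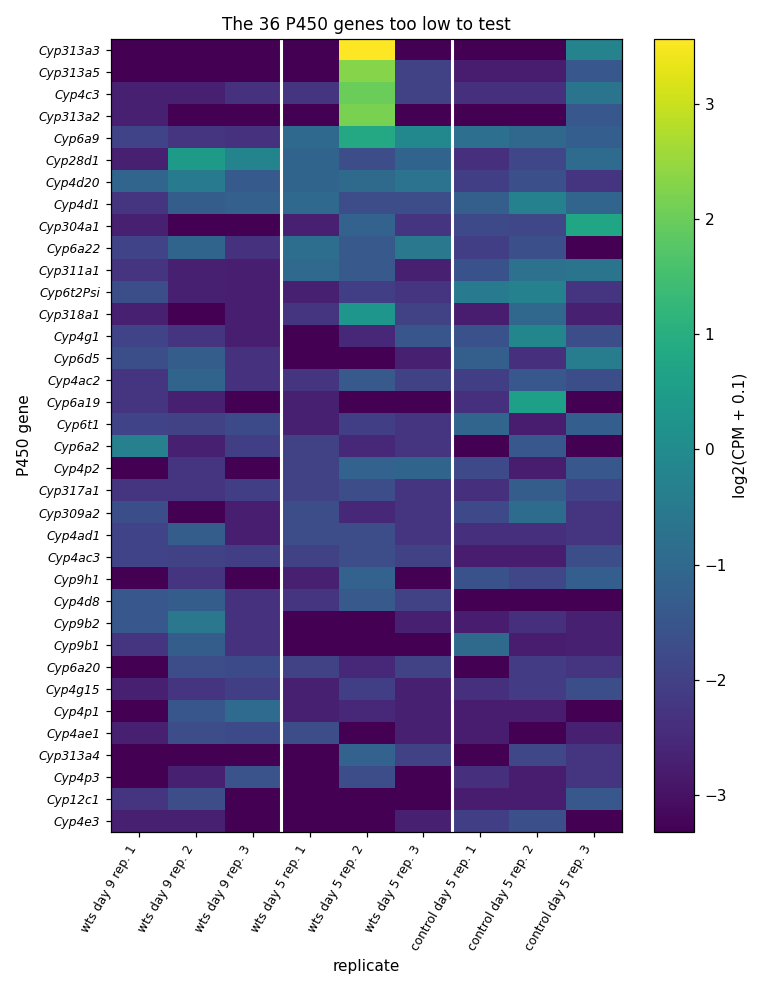
Level of the 36 members outside the filter in each of the 9 replicates, as log2(CPM + 0.1), with wts day 9, wts day 5 and control day 5 from left to right. Cyp313a3, Cyp313a5, Cyp4c3 and Cyp313a2 are bright in wts day 5 replicate 2, where Cyp313a3 has 11.7 CPM.

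Genes that make or break down ecdysone were followed beside the P450s, as single genes. Of 10 in the table, 6 were tested. On day 9 Cyp18a1 rose and dib fell, on day 5 dib, sad and shd fell, and between the wts ages Cyp18a1 rose. Among all tested genes, 15.3% rose and 14.3% fell on day 9, and 9.64% and 8.88% on day 5. Between the wts ages, 5.44% of all tested genes rose and 2.9% fell. No list of this kind was tested as a set. The median log2 fold change of the 6 tested ecdysteroid genes was -0.56 on day 9 and -0.71 on day 5, beside the medians of all genes given above. Cyp18a1, the P450 that inactivates ecdysteroids, stood at 12.4, 7.25 and 14.1 CPM in wts day 9 discs, 3.42, 2.74 and 1.82 in wts day 5 discs and 4.12, 1.02 and 3.95 in control discs. Day 9 lay above both other groups (log2 1.90 ± 0.47 against control, edgeR adjusted p = 0.0140, lost without wts day 9 replicate 3 at 0.0525). Its rise between the wts ages (2.08 ± 0.48, adjusted p = 0.0290) was lost whichever wts replicate was left out (0.05004 to 0.119). dib, an enzyme of ecdysone synthesis, had 0.267, 0.362 and 0.288 CPM in wts day 9 discs and 0.311, 0.632 and 0.883 in wts day 5 discs, against 5.53, 3.78 and 1.23 in control discs. It fell by 3.50 ± 0.60 on the log2 scale on day 9 (adjusted p = 0.00250). On day 5 it fell by 2.52 ± 0.56 (0.0138, lost without wts day 5 replicate 1 or control replicate 1 at 0.0510 to 0.0571). With 18, 32 and 226 counts in wts day 9, wts day 5 and control discs, dib may have passed the filter through the controls alone. sad, which acts in the same synthesis, fell on day 5 (-0.94 ± 0.24, adjusted p = 0.0230), as did shd (-2.89 ± 0.82, 0.0353), which makes the active hormone from ecdysone in target tissues. Control values of shd spread over 0.400 to 4.16 CPM, and its call was lost without replicate 3 of the controls or of wts day 9, or any wts day 5 replicate (adjusted p 0.0570 to 0.134). Leaving out wts day 5 replicate 1 or 3 or control replicate 1 or 2 lost the call of sad (0.0520 to 0.101). The 7 ring gland markers, which share these genes, summed to 6.42 to 9.28, 6.70 to 7.51 and 12.4 to 15.4 CPM in wts day 9, wts day 5 and control discs, with none at 0.

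Of 19 genes that respond to ecdysone, all tested, 4 rose on day 9, 1 rose and 8 fell on day 5, and 9 rose between the wts ages (median log2 0.084, -0.54 and 1.17). Among all tested genes, 15.3% rose on day 9, 9.64% rose and 8.88% fell on day 5, and 5.44% rose between the wts ages. With 1 replicate left out, 3 to 11 of the 19 fell on day 5 and 0 to 13 rose between the wts ages. On day 9 none of the 19 fell, except that 5 did without control replicate 2. ImpE2, an ecdysone-inducible gene of discs, stood at 949, 246 and 627 CPM in wts day 9 discs, 73.2, 67.4 and 22.3 in wts day 5 discs and 2218, 452 and 2696 in control discs. ImpE2 fell on day 5 (log2 -5.04, edgeR adjusted p = 0.00273), rose between the wts ages (3.49, 0.0215, lost in 5 of 9 left-out fits) and did not pass on day 9 (0.108). Control replicate 2 was the lowest control in ImpE2 and in Cyp18a1. Other genes of the list differed from ImpE2. ftz-f1 rose on day 5 (1.02, adjusted p = 0.00384) and day 9 (0.82, 0.00637). Eip93F rose on day 9 (2.33, 0.0050) and between the wts ages (2.76, 0.0114, lost in 2 of 9 left-out fits).

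Of 12 juvenile hormone genes in the table, 9 were tested, and 5 rose on day 9, 3 on day 5 and 1 between the wts ages (median log2 0.23, 0.19 and 0.038). The shares of all tested genes that rose were 15.3%, 9.64% and 5.44% in the same order. Jheh2, an epoxide hydrolase that degrades juvenile hormone, stood at 446, 537 and 487 CPM in wts day 9 discs and 465, 369 and 508 in wts day 5 discs, against 271, 255 and 276 in control discs (log2 0.87 ± 0.12 and 0.74 ± 0.11, edgeR adjusted p = 0.000684 and 0.00266). Jheh1, of the same kind, had 25.4, 24.8 and 22.6 CPM in wts day 9 discs and 24.7, 21.3 and 28.3 in wts day 5 discs, against 11.8, 14.4 and 14.8 in control discs (0.83 ± 0.13 and 0.86 ± 0.13, adjusted p = 0.00141 and 0.00202). Both passed under every alternative run. Fpps, which makes farnesyl diphosphate, a precursor of the hormone, rose on day 9 (0.51 ± 0.08, adjusted p = 0.00148) and on day 5 (0.27 ± 0.08, 0.0385), the day 5 call lost without wts day 5 replicate 1, 2 or 3 or control replicate 2 or 3 (0.0531 to 0.114). Kr-h1, a transcription factor that the hormone induces, had 71.8, 82.5 and 78.8 CPM in wts day 9 discs, 58.9, 56.5 and 57.9 in wts day 5 discs and 58.8, 58.7 and 54.1 in control discs. It rose on day 9 against control (0.44 ± 0.07, adjusted p = 0.00148) and against wts day 5 (0.43 ± 0.07, 0.00770), and the day 5 groups overlapped (adjusted p = 0.903).

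The electron donors of P450s did not pass in any comparison, by edgeR, DESeq2 or limma-voom, with 6 of 7 tested and 2 at an unadjusted p under 0.05 on day 9. Cpr, the reductase that serves most P450s, had 139, 122 and 136 CPM in wts day 9 discs, 126, 122 and 117 in wts day 5 discs and 110, 93.7 and 131 in control discs (adjusted p = 0.107 on day 9 and 0.423 on day 5). Of 9 genes of haem synthesis and breakdown, all tested, 1 rose and 1 fell on day 9, and 1 rose in each other comparison. Among all tested genes, 15.3% rose and 14.3% fell on day 9, 9.64% rose on day 5 and 5.44% between the wts ages. The haem counts therefore describe single genes. Alas, the first enzyme of haem synthesis, stood at 59.9, 63.7 and 61.0 CPM in wts day 9 discs, 50.8, 43.3 and 48.9 in wts day 5 discs and 52.0, 47.9 and 46.8 in control discs. It rose on day 9 (log2 0.33 ± 0.08, edgeR adjusted p = 0.0104), and the wts day 5 and control values overlapped. Pbgs, the enzyme after Alas, fell on day 9 (-0.42 ± 0.12, adjusted p = 0.0228), a call lost without wts day 9 replicate 2 or 3 or control replicate 1 or 3 (0.0524 to 0.0885).

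Of 6 regulators of the xenobiotic response, all tested, 2 rose and 1 fell on day 9, 1 rose and 3 fell on day 5, and none passed between the wts ages, where 2 had an unadjusted p under 0.05 and DESeq2 called 1 and limma-voom none. Among all tested genes, 15.3% rose and 14.3% fell on day 9, and 9.64% and 8.88% on day 5. cnc, the transcription factor that turns on detoxifying genes, had 223, 224 and 227 CPM in wts day 9 discs, 208, 191 and 205 in wts day 5 discs and 178, 189 and 175 in control discs. It rose on day 9 (log2 0.31 ± 0.06, edgeR adjusted p = 0.00354) under every alternative run and did not pass on day 5 (adjusted p = 0.0815). Its inhibitor Keap1 fell on day 9 (-0.36 ± 0.11, adjusted p = 0.0351) and day 5 (-0.39 ± 0.11, 0.0371), and each call was lost in 5 of 9 fits with 1 replicate left out (0.0507 to 0.141). maf-S rose on day 5 (log2 0.38, edgeR adjusted p = 0.0194) and day 9 (0.28, 0.0425), the second call lost in 6 of 9 such fits. The other calls were falls on day 5, of ss (-0.58, adjusted p = 0.0321, lost in 5 of 9) and tgo.

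Of 17 genes of fatty acid and hydrocarbon metabolism, 13 were tested. On day 9, 1 rose and 1 fell, on day 5, 1 rose and 2 fell, and 1 rose between the wts ages. Among all tested genes, 15.3% rose and 14.3% fell on day 9, and 9.64% and 8.88% on day 5. Between the wts ages, 5.44% rose. The counts of this list therefore describe single genes. Desat1, the acyl desaturase, had 503, 620 and 568 CPM in wts day 9 discs and 638, 592 and 665 in wts day 5 discs, against 413, 413 and 329 in control discs. All wts values lay above all controls (log2 0.55 ± 0.11 and 0.71 ± 0.11, edgeR adjusted p = 0.00491 and 0.00245), and both calls passed under every alternative run. whd, the carnitine palmitoyltransferase that brings fatty acids into mitochondria, had 63.7, 51.8 and 68.9 CPM in wts day 9 discs, 37.9, 30.8 and 35.1 in wts day 5 discs and 47.3, 48.4 and 59.0 in control discs. It fell on day 5 (-0.57 ± 0.13, adjusted p = 0.0147, lost without wts day 5 replicate 2 or 3 at 0.0509 to 0.0605) and rose between the wts ages (0.83 ± 0.13, 0.00720). The wts day 5 discs were the lowest group in whd, as they were in Cyp4e2 and Cyp6d4. The other calls of this list were falls of bmm on day 5 (log2 -1.94, edgeR adjusted p = 0.0255) and of Lpin on day 9 (-0.64, 0.0452). With 1 replicate left out, they were lost in 4 and 8 of 9 fits. CG17374 (FASN3), a fatty acid synthase of oenocytes taken from the marker list after its values were seen, had 9.55, 17.5 and 14.6 CPM in wts day 9 discs and 11.6, 11.17 and 13.0 in wts day 5 discs, against 2.67, 4.04 and 3.31 in control discs (2.05 ± 0.23 and 1.84 ± 0.23, adjusted p = 0.000302 and 0.00100). It was the only 1 tested of the 3 oenocyte markers in the table. Of the others, eloF was at 0 in every library and FarO was outside the filter. The 3 summed to 9.55 to 17.5, 11.2 to 13.0 and 2.72 to 4.22 CPM in wts day 9, wts day 5 and control discs, nearly all of it CG17374. Cyp4g1, also of oenocytes, was not tested and had 6, 6 and 27 counts in wts day 9, wts day 5 and control discs. It stood at 0.800 CPM in control replicate 2, against 0.234 and 0.213 in control replicates 1 and 3. Its wts day 9 values lay below all controls, and wts day 5 overlapped them.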

How the data were processed

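Total RNA of 18 libraries was deposited as read counts per gene symbol, in whole numbers and not normalized, and the submitters' processing notes name HTSeq. Its version, the aligner, build, annotation and strand setting: not given in the sources used here. Groups and replicate numbers come from the sample titles. Each number has an a and a b library, which were summed, since over all genes they differed by about counting noise (chi-square over its degrees of freedom 0.994 to 1.06 over 9 pairs). Control replicate 1 and wts day 5 replicate 3 exceeded that noise slightly (chi-square p = 8.5e-05 and 0.013). For the members alone the ratio was 0.829 to 1.70, highest in wts day 5 replicate 2 (chi-square p = 0.0081). Between replicates of 1 group the ratio over all genes was 11.1 to 58.9. Nothing in the labels tells whether replicates are separate sets of larvae, so p-values cover the spread between these samples, which may be technical.

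All 3 groups were fitted together in edgeR 4.0.16 (legacy quasi-likelihood F-test, TMM, filterByExpr) in R 4.3.3, and 8585 genes were tested, with Benjamini-Hochberg adjustment over all of them and a threshold of 0.05. The fit has 6 residual degrees of freedom and was tested on simulated data. Low counts are also given as ratios of summed counts with exact 95% intervals, which cover counting error only. Alternatives (other scaling, filters and tools, a or b libraries alone, 2 groups alone, the replicate block, each replicate left out) used limma 3.58.1 and DESeq2 1.42.0, and plots Python 3.11.15 and matplotlib 3.10.9. One alternative, edgeR without the legacy dispersion estimate, was chosen after seeing the data.

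Exon lengths, arms, neighbours and overlaps come from the Ensembl release 115 annotation, on which all 66 members were found. It may differ from the authors' build, so no coordinates are given. Named members were those called in any comparison and the 12 with the highest mean CPM. Up to 4 called genes were named from each of 7 pathway lists, and 11 lists of cell type markers were summed. Members and lists were chosen with earlier results of these data known.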

Additional observations from a re-analysis of the deposited data

How the results depend on the processing

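Of the results of the 17 named members under the alternatives, 917 stayed on the same side of the threshold, 71 lost a call and 15 gained one. No call reversed, but differences that did not pass could change sign. Cyp4e2 on day 9 against control went from 0.014 to -0.12 on the log2 scale without wts day 9 replicate 1. Of the members not named by rule, 7 passed in at least 1 of 20 alternatives. Cyp312a1 fell on day 9 in 7 of them, and the others were Cyp309a1, Cyp4d8, Cyp6t2Psi, Cyp6a9, Cyp28d1 and Cyp304a1. On day 5, 5 members rose and 2 fell; with library size alone 3 rose, in the a libraries 3 rose, and in the b libraries 1 fell. On day 9, 5 rose and 4 fell. The stricter filter (20 members tested) gave 2 falls, and the a libraries (19 tested) 2 rises and 2 falls. Neither of these fits tested Cyp305a1 or Cyp313b1. Between the wts ages, 2 rose and 1 fell; the a libraries gave 1 rise and 0 falls, the b libraries and limma-voom 1 rise each, and no filter (66 tested) 2 falls, with Cyp6a9 added. Leaving out 1 replicate gave 2 to 5 rises and 1 to 3 falls on day 5, 4 to 7 rises and 3 to 6 falls on day 9, and 0 to 2 rises and 0 to 3 falls between the wts ages, where no rise was left without any single wts replicate. Same-numbered replicates were not taken as pairs, since their deviations correlated at -0.218 to 0.209 and 2 of 9 replicates correlated best with their own number. With the replicate block, 2 members rose and 1 fell on day 5, 5 rose and 5 fell on day 9, and 1 rose and 2 fell between the wts ages. Without edgeR's legacy dispersion estimate, chosen after seeing the data, 5 rose and 3 fell on day 5, 6 and 6 on day 9, and 2 and 1 between the wts ages. The 46 members below 1 CPM rest on few counts, so a change in them was mostly not detectable at this depth, and 1 replicate can set their group mean.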
